A study of Mus musculus with 22 samples.

Results

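The immediate early genes described here are 10 genes, Fos, Fosb, Junb, Egr1, Nr4a1, Npas4, Arc, Ier2, Dusp1 and Btg2, in RNA-seq of whole mouse spinal cord. They were chosen by symbol and not by a threshold on these values, but with earlier results of these data known. All 10 were found among the 21995 genes of the count table. Aging was examined in wild-type C57BL/6 males, with 8 young mice aged 3-4 months and 8 old mice aged 18-24 months. Amyotrophic lateral sclerosis (ALS) was modelled by 3 symptomatic SOD1-G93A mice, which carry many copies of a mutant human SOD1 transgene, and these were set against 3 wild-type controls, all aged 5-6 months. Each ALS group held both sexes, and the sex of each library was not used. The aging libraries were made with the Roche KAPA Hyperprep kit and the ALS libraries with the Illumina TruSeq kit, so each comparison stayed within a kit while kit and experiment cannot be told apart between them. No group carried a manipulated Sirt1 gene. Because the labels call the samples replicates and give no further relation among them, p-values measure the spread between these samples.

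Immediate early genes are transcribed within minutes of a stimulus without any need for new protein. In neurons, calcium entry during firing acts through CREB, MEF2 and the serum response factor, whereas in glia and vessels growth factors, cytokines and tissue injury act through the MAP kinases on many of the same promoters. Fos, Fosb and Junb are subunits of the AP-1 transcription factor. Egr1, Nr4a1 and Npas4 encode other transcription factors, of which Npas4 is largely restricted to neurons and to calcium entry. Arc acts at synapses on glutamate receptor trafficking, Ier2 is a small growth-factor-induced regulator, and Dusp1 and Btg2 restrain the response, Dusp1 by inactivating MAP kinases and Btg2 by limiting proliferation and promoting mRNA deadenylation.

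Promoter sequences are shown for Fos, Junb and Btg2, which were higher in both comparisons, and for Npas4, which passed the test in neither. Each runs from 250 bases before to 50 bases after the RefSeq start in GRCm38.p6, read on the strand of the gene. They cover chr12:85473640-85473939 on the plus strand for Fos, and chr8:84978699-84978998 for Junb, chr1:134079106-134079405 for Btg2 and chr19:4989922-4990221 for Npas4 on the minus strand. Capitals mark the cyclic AMP response element (CRE) TGACGTCA that CREB binds, its core TGACG on either strand (CGTCA when read on the other), and the TATA box letters TATAAA.
Fos: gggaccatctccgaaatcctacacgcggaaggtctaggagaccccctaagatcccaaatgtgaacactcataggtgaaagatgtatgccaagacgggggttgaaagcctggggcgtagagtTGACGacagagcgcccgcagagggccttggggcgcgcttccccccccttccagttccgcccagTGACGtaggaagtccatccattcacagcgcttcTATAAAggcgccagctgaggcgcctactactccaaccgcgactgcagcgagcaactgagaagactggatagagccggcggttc
Junb: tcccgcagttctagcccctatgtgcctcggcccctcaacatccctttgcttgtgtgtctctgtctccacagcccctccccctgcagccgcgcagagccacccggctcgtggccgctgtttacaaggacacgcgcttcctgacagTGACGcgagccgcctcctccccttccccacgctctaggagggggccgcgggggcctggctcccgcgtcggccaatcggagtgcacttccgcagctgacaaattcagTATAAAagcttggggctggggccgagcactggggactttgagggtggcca
Btg2: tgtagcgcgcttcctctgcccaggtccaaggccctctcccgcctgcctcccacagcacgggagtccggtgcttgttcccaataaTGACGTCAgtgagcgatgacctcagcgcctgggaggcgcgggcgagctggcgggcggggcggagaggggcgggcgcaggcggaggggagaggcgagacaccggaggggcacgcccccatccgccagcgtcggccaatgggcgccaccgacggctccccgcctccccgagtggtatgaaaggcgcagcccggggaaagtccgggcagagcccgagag
Npas4: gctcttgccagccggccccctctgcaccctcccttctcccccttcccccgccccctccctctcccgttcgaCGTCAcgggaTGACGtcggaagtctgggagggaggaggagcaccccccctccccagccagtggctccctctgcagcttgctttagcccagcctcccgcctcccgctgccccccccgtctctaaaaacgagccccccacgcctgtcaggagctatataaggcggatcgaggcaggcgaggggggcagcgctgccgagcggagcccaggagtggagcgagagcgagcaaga

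RefSeq promoters were matched for 7 of the 10 genes, with Egr1, Arc and Ier2 without a match. All 7 held the core TGACG, against 20.8% of 32841 mouse promoters of the same length. Fos carried it 129 and 66 bases before the start, Junb 106 bases before it, and Nr4a1 held 4 copies. The full TGACGTCA, which contains the core on both strands, was found in Btg2 at 166 and in Dusp1 at 143 bases before the start, 2 of 7 genes against 1.79% of all promoters. TATAAA, searched on both strands, was found in Fos 33 bases before the start and in Junb at the start itself, against 13.6% of all promoters. The AP-1 letters TGANTCA were in 0 of 7 windows and in 7.81% of all promoters, and the CArG box was in 0 of 7 and in 1.63%. Sites more than 250 bases before the start, and the promoters of Egr1, Arc and Ier2, were not searched. These matches are letters in a window and were not tested against the expression values.

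Levels were read at modest depth. The young and old libraries held from 5078092 to 9358055 counts, and the ALS-experiment libraries held from 9675610 to 13219797. The lowest count of any of the 10 genes in any library was 13, above the 3 counts taken as the limit of detection, and all 10 passed the filter on low counts in both experiments. On the length-scaled FPKM values, which allow genes to be set side by side, Egr1 was the most abundant in young (11.8 ± 2.82 FPKM, SD, n = 8), old (11.5 ± 1.78, n = 8) and control cords (11.8 ± 4.95, n = 3). Npas4 (1.13 ± 0.357 FPKM in young) and Fosb (0.955 ± 0.222 in young) were the least abundant in each group. Neighbours in this order overlapped in their ranges throughout the young group, and in the old group all neighbours overlapped except Arc and Nr4a1. In SOD1-G93A cords Junb (18.6 ± 5.29 FPKM), Egr1 (21.8 ± 6.04) and Fos (19.9 ± 4.78) led with overlapping ranges, and all 3 lay above Dusp1 (9.89 ± 1.2). By median FPKM, Arc came after Egr1 alone in control cords but after 6 of the other genes in SOD1-G93A cords.

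**Figure D1:**
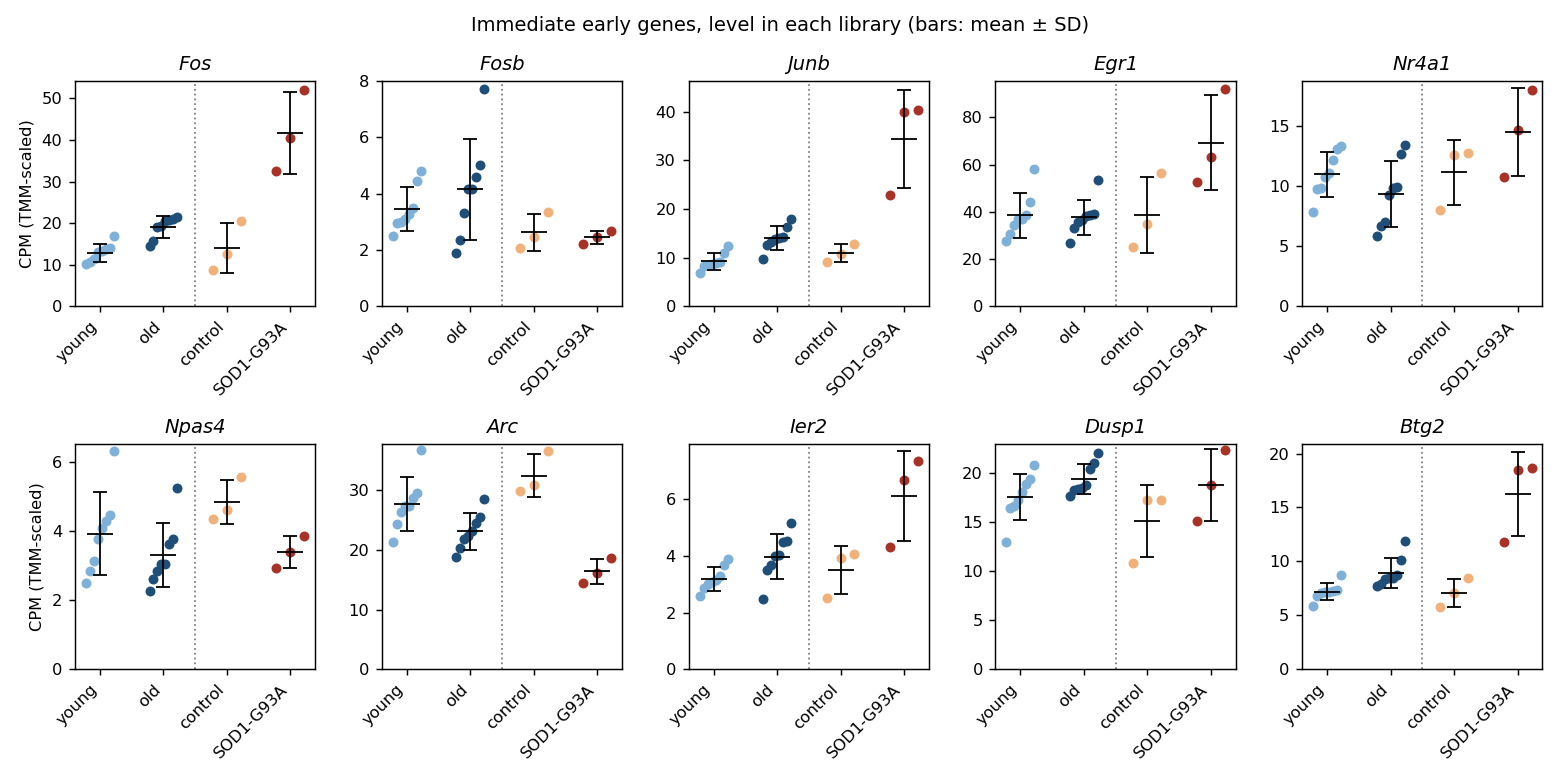
CPM (counts scaled to library size, vertical axis from zero) of each immediate early gene, with 1 point per library ordered by value in young (n = 8), old (n = 8), control (n = 3) and SOD1-G93A (n = 3) cords and bars of mean ± SD. Fos, Junb and Btg2 in SOD1-G93A cords lie above every control point and Arc lies below every control point, whereas young and old points overlap for all 10 genes.

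The first comparison asked which of these genes differ between old and young wild-type cords. Of the 10, 3 rose with age (Fos, Junb, Btg2), 1 fell (Arc) and 6 did not pass the test. The changes were small, and none of the 10 passed a log2 fold change of 1. Of 13647 genes tested, 13.5% were higher and 12.9% lower in old mice by edgeR's quasi-likelihood test at a Benjamini-Hochberg adjusted p under 0.05. Over the 10 genes the median change was 0.20 in log2, beside -0.00273 over all genes tested.

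Levels are given as CPM, the count scaled to the TMM-adjusted library size. Fos measured 10.2 CPM in the lowest young library, 13.1 at the median and 16.9 in the highest, and 14.6, 20.0 and 21.4 CPM in old libraries. All 8 old libraries lay above the young median and 6 lay above every young library, so the groups overlapped at the 2 lowest old libraries. The log2 fold change was 0.56 ± 0.10 (SE, adjusted p = 0.000266), or 1.48-fold. Junb, its AP-1 partner, ran from 6.93 through a median of 8.86 to 12.3 CPM in young and from 9.72 through 14.01 to 17.9 CPM in old libraries. In old mice 7 of 8 libraries exceeded every young one, and only library d149034 fell within the young range. The log2 fold change of Junb was 0.61 ± 0.12 (SE, adjusted p = 0.000561).

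Fosb, the other AP-1 member, was scarce. It measured 2.49, 3.19 and 4.80 CPM at the lowest, median and highest young library and 1.90, 4.17 and 7.71 CPM in old libraries. Old libraries reached both below and above the young range, and the log2 fold change was 0.26 ± 0.22 (SE, adjusted p = 0.416).

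Among the other transcription factors, none passed the test with age. Egr1 had nearly the same median in young (37.0 CPM, from 27.5 to 58.1) and old libraries (37.2 CPM, from 26.7 to 53.4), and its log2 fold change was -0.03 ± 0.13 (SE, adjusted p = 0.887). Nr4a1 ran from 7.85 through 10.9 to 13.4 CPM in young and from 5.87 through 9.56 to 13.4 CPM in old libraries. Old libraries spanned a wider range than young ones and 3 of them lay below every young library, with a log2 fold change of -0.23 ± 0.15 (SE, adjusted p = 0.287). Npas4 ran from 2.504 through 3.93 to 6.33 CPM in young and from 2.27 through 3.05 to 5.25 CPM in old libraries. Only 1 of 8 old libraries exceeded the young median of Npas4, but the ranges overlapped almost entirely and the log2 fold change was -0.24 ± 0.20 (SE, adjusted p = 0.406).

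Arc fell with age, from 27.4 CPM at the young median (21.4 to 36.7) to 22.8 CPM at the old median (18.9 to 28.5). In old mice 2 of 8 libraries lay below every young one and 1 lay above the young median, so the groups overlapped broadly. The log2 fold change was -0.27 ± 0.10 (SE, adjusted p = 0.0407). This call was lost (adjusted p from 0.0543 to 0.0953) when any of 9 libraries was left out, namely d149011, d149012, d149017, d149018 and d149019 of the young and d149025, d149026, d149032 and d149035 of the old group, and with limma on the log2(FPKM + 1) values (adjusted p = 0.105).

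Of the genes that restrain the response, Btg2 rose and Dusp1 did not pass. Btg2 ran from 5.88 through 7.15 to 8.73 CPM in young and from 7.75 through 8.47 to 11.9 CPM in old libraries. All 8 old libraries lay above the young median and 3 above every young library, with a log2 fold change of 0.32 ± 0.11 (SE, adjusted p = 0.0273). The call was lost without young library d149017 (adjusted p = 0.0613), without old library d149035 (0.0576) or d149036 (0.0615), in the fit of all libraries (0.0522) and with limma (0.0607). Dusp1 ran from 13.0 through 17.6 to 20.8 CPM in young and from 17.6 through 18.6 to 22.03 CPM in old libraries, with 7 of 8 old libraries above the young median and a log2 fold change of 0.14 ± 0.08 (SE, adjusted p = 0.213). Ier2, the growth-factor-induced regulator, ran from 2.60 through 3.12 to 3.88 CPM in young and from 2.47 through 4.01 to 5.17 CPM in old libraries. Its old libraries were above every young one in 5 of 8 cases and below every young one in 1 case, d149034, and the log2 fold change was 0.33 ± 0.15 (SE, adjusted p = 0.111). Without that library Ier2 passed (adjusted p = 0.0337). None of the 10 genes separated the groups without overlap, where 3.66% of all genes tested did so in the higher and 1.66% in the lower direction.

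The second comparison asked how the same genes differ between SOD1-G93A and control cords. Again 3 rose (Fos, Junb, Btg2), 1 fell (Arc) and 6 did not pass, and the changes were larger. The 3 that rose each passed a log2 fold change of 1 as well. Of 14386 genes tested, 18.4% were higher and 15.5% lower in SOD1-G93A cords by the same test, and the median change over the 10 genes was 0.59 in log2, beside 0.00306 over all genes tested. Without overlap between groups, 4 of the 10 were higher (Fos, Junb, Ier2, Btg2) and 2 lower (Arc, Npas4), where 25.7% and 24.7% of all genes tested separated in these directions. In whole cord, fewer cells of a type and less RNA per cell cannot be told apart in any of these differences.

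Fos measured 8.64, 20.5 and 12.7 CPM in control libraries d4438, d4441 and d4444, and 40.5, 32.4 and 51.9 CPM in SOD1-G93A libraries d4435, d4437 and d4443. The lowest SOD1-G93A value exceeded the highest control value, and the controls themselves spread 2.37-fold from lowest to highest. The log2 fold change was 1.58 ± 0.28 (SE, adjusted p = 0.00436), or 2.98-fold. Junb measured 9.20, 12.9 and 10.8 CPM in the same controls and 40.4, 22.9 and 39.9 CPM in SOD1-G93A libraries. All 3 SOD1-G93A values were high and d4437 was the lowest of them, with a log2 fold change of 1.65 ± 0.23 (SE, adjusted p = 0.00133). Fosb did not follow its AP-1 partners. It measured 2.47, 3.37 and 2.07 CPM in controls and 2.46, 2.22 and 2.69 CPM in SOD1-G93A libraries, all of these within the control range, with a log2 fold change of -0.10 ± 0.28 (SE, adjusted p = 0.814).

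Egr1 measured 25.0, 56.5 and 34.9 CPM in controls and 91.9, 52.7 and 63.4 CPM in SOD1-G93A libraries. The groups overlapped, since control d4441 exceeded SOD1-G93A d4437, and the log2 fold change of 0.84 ± 0.29 (SE) had an adjusted p of 0.0518. Egr1 passed without d4441 (0.0212) or without d4437 (0.0119), with DESeq2 (0.0126), with limma (0.0454), without the filter on low counts (0.0391) and in the fit of all libraries (0.00888). Nr4a1 measured 8.07, 12.6 and 12.8 CPM in controls and 18.0, 10.8 and 14.7 CPM in SOD1-G93A libraries, of which 2 exceeded every control. Its log2 fold change was 0.38 ± 0.23 (SE, adjusted p = 0.242). Npas4, the factor most closely tied to neuronal firing, measured 4.36, 5.56 and 4.61 CPM in controls and 3.39, 2.92 and 3.85 CPM in SOD1-G93A libraries. All 3 were below every control, with 29 to 66 counts per library, and the log2 fold change of -0.51 ± 0.22 (SE) did not pass (adjusted p = 0.109).

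Arc fell to 1.98-fold lower levels in SOD1-G93A cords. It measured 30.8, 30.0 and 36.7 CPM in controls and 14.5, 18.6 and 16.2 CPM in SOD1-G93A libraries. The groups did not overlap, and d4437, the library lowest for most of the other genes, was the highest of its group for Arc. The log2 fold change was -0.99 ± 0.13 (SE, adjusted p = 0.00118).

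Btg2 measured 7.02, 8.42 and 5.76 CPM in controls and 18.6, 11.8 and 18.4 CPM in SOD1-G93A libraries, without overlap, and rose by a log2 fold change of 1.21 ± 0.22 (SE, adjusted p = 0.00471). Dusp1 measured 10.8, 17.3 and 17.2 CPM in controls and 22.4, 15.1 and 18.8 CPM in SOD1-G93A libraries. The low control was d4438, the other 2 controls lay among the SOD1-G93A values, and the log2 fold change was 0.31 ± 0.21 (SE, adjusted p = 0.282). Ier2 measured 4.08, 2.53 and 3.92 CPM in controls and 6.69, 4.33 and 7.34 CPM in SOD1-G93A libraries. Every SOD1-G93A library was above every control, with 30 to 82 counts per library, and the log2 fold change of 0.81 ± 0.28 (SE) had an adjusted p of 0.0529. Ier2 passed without d4437 (0.00989), with DESeq2 (0.045), with limma (0.0431) and in the fit of all libraries (0.00837). Fos, Junb, Btg2 and Arc kept an adjusted p under 0.05 in all 11 alternative fits of this comparison.

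**Figure D2:**
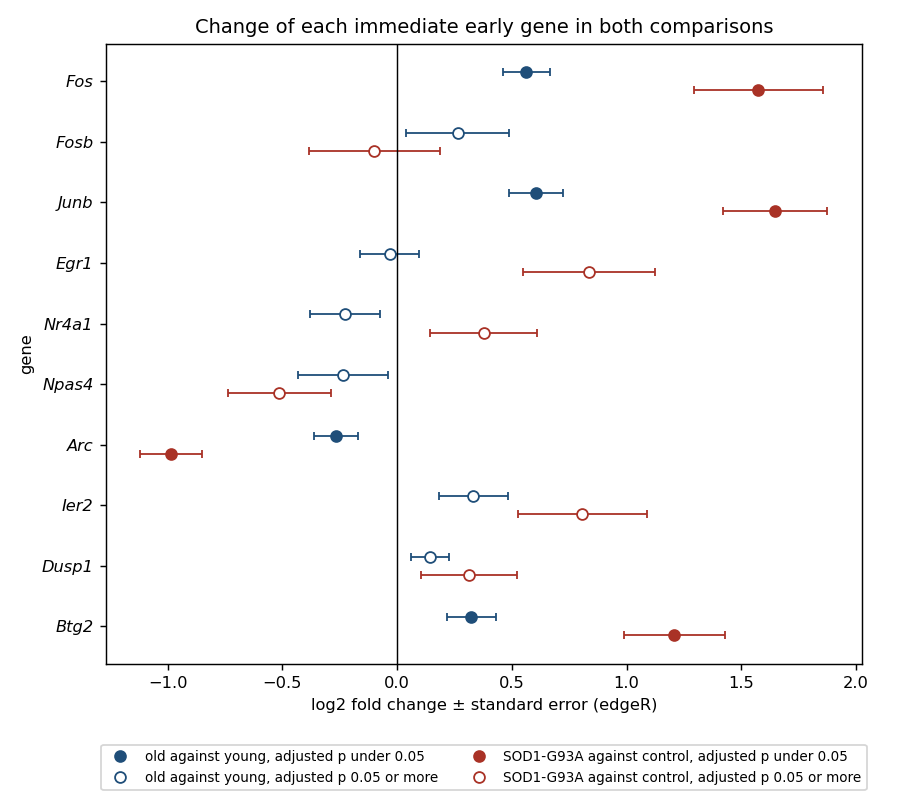
Log2 fold change (horizontal axis) of each gene in old against young mice and in SOD1-G93A against control mice, with bars of ± 1 standard error from edgeR and filled points for an adjusted p under 0.05. Fos, Junb and Btg2 lie to the right and Arc to the left of zero in both comparisons, each further out in the SOD1-G93A comparison.

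Whether the change in SOD1-G93A cords differed from that in old cords was tested as an interaction term in a fit of all 22 libraries. Of 14502 genes tested, 11.6% had a more positive and 14.2% a more negative change in the SOD1-G93A comparison. Among the 10 genes, 4 had a more positive change. These were Fos (difference in log2 fold change 0.98 ± 0.25, SE, adjusted p = 0.00515), Junb (1.01 ± 0.24, 0.00264), Btg2 (0.86 ± 0.21, 0.00383) and Egr1 (0.84 ± 0.29, 0.0349). Arc had a more negative one (-0.75 ± 0.18, SE, adjusted p = 0.0029). The Egr1 difference was lost without control d4438 (adjusted p = 0.139), without control d4444 (0.0929), without SOD1-G93A d4435 (0.187) and with DESeq2 (0.0537). Nr4a1 (0.58 ± 0.29, adjusted p = 0.146), Ier2 (0.45 ± 0.28, 0.263), Dusp1 (0.14 ± 0.19, 0.639), Npas4 (-0.30 ± 0.33, 0.549) and Fosb (-0.39 ± 0.42, 0.534) did not pass. Age, disease, kit and sex composition all differ between the experiments and cannot be told apart in these differences.

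Transcripts of this kind can change within minutes, so the spread between libraries of a group was described for each gene as the SD of its log2 CPM. In young, old, control and SOD1-G93A libraries, 10, 9, 10 and 9 of the 10 genes lay above the median SD of all genes tested. Their median SD was 0.24, 0.266, 0.348 and 0.354, where the median over all genes was 0.137, 0.169, 0.125 and 0.173. This SD also holds counting error, which is larger for genes with few counts. The observed SD exceeded that from counting alone for 8, 9, 9 and 8 of the 10 genes, beside 81.5%, 89.9%, 73.3% and 79.1% of all genes tested that had counts in every library of the group. These shares are close to each other, so the share alone does not set the 10 genes apart. The median ratio of observed to counting SD was 1.575, 1.69, 1.995 and 2.965 for the 10 genes. Over all such genes it was 1.37, 1.63, 1.51 and 1.88. Because counting error is smaller at higher counts, the ratio also depends on the count of a gene, and the difference was not tested. The ratio was highest for Egr1 in control (8.22) and SOD1-G93A libraries (7.53), followed by Junb in SOD1-G93A (6.03) and Fos in control libraries (5.14). Ier2 in young (0.642), Fosb in SOD1-G93A (0.496) and Npas4 in control libraries (0.947) spread no more than their counts alone would give.

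**Figure D3:**
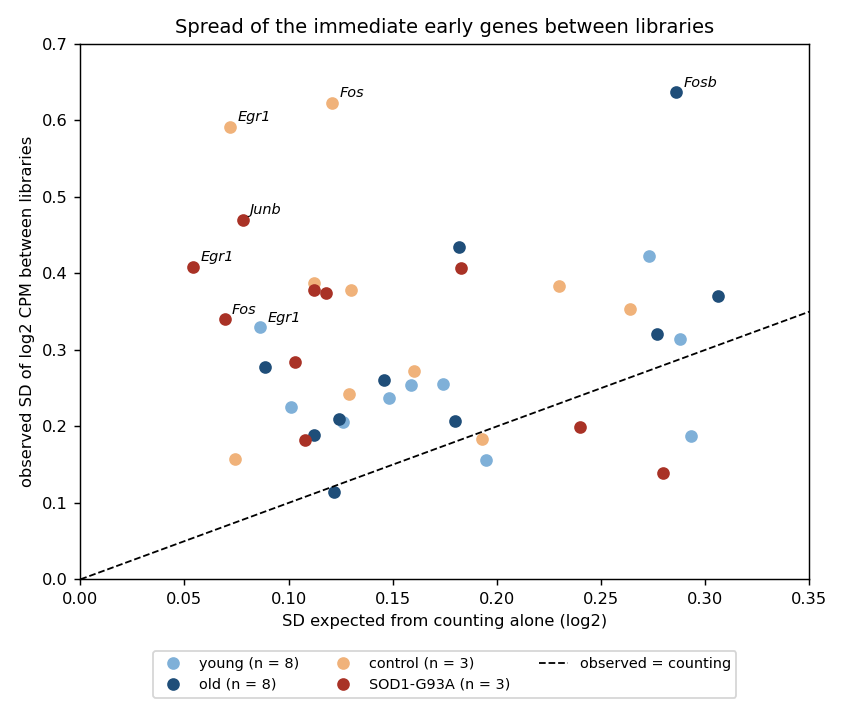
Observed SD of log2 CPM between libraries (vertical axis) against the SD expected from counting alone (horizontal axis, log2 units), with 1 point per gene and group and a dashed line where they are equal. Egr1 and Fos in control and SOD1-G93A libraries and Junb in SOD1-G93A libraries lie far above the line, whereas Fosb in SOD1-G93A libraries lies below it.

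In some libraries most of the 10 genes shifted in the same direction, and how many of all genes tested did so was not counted. Over the 16 aging libraries the genes were unevenly alike, with a Pearson r from 0.723 (Fosb and Egr1) to -0.48 (Fosb and Npas4). SOD1-G93A library d4437 was the lowest of its group for 9 of the 10 genes and the highest for Arc alone. Among the controls, d4441 was the highest for 7 and d4438 the lowest for 6 of the 10. A library in a group of 3 is more often the highest or lowest than one in a group of 8, so these counts are not set against the larger groups. There, old library d149028 lay above its group mean for 9 of the 10 genes, young library d149009 for 1, and young library d149012 was the highest for 4. Old library d149034 was mixed, highest of its group for Egr1 (53.4 CPM), Fosb (7.71 CPM) and Nr4a1 (13.4 CPM) and lowest for Junb and Ier2.

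**Figure D4:**
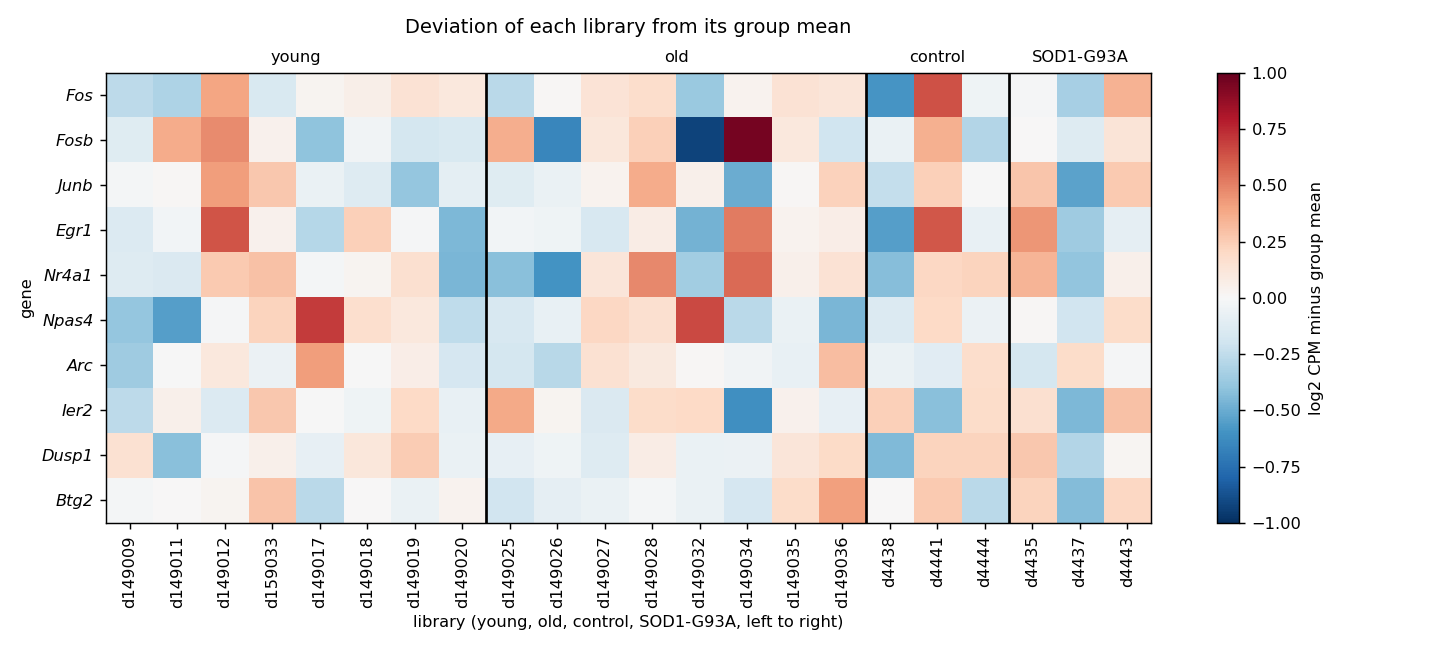
Deviation of each gene's log2 CPM from its group mean (colour scale) in every library, with genes in rows and libraries in columns ordered by group. SOD1-G93A library d4437 is below its group mean for every gene but Arc, and control library d4441 is above it for 8 of the 10 genes.

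The same libraries differed in cell type markers. The summed level of 12 neuronal marker genes was 6022 CPM in d4437, against 3622 and 4093 CPM in d4435 and d4443, and from 8429 to 8752 CPM in controls. The summed level of 8 microglial markers was 1067 CPM in d4437, against 1668 and 1397 CPM, and from 302 to 369 CPM in controls. Library d4437, with the lowest Fos, Junb and Btg2 and the highest Arc of its group, held the most neuronal and least microglial marker RNA of the 3. Old library d149034 had the highest neuronal (8423 CPM) and lowest microglial (429 CPM) sum of the old group. It had the lowest Junb of that group, but its Fos (19.4 CPM), Btg2 (7.87 CPM) and Arc (22.4 CPM) were neither the lowest nor the highest. Of a list of 7 glucocorticoid-response genes, which includes stress-hormone targets such as Fkbp5, the sum was 1301, 371 and 591 CPM in SOD1-G93A libraries d4435, d4437 and d4443, and 348, 725 and 538 CPM in controls d4438, d4441 and d4444. Within both of these groups the sum ranked the libraries as the mean deviation of the 10 genes did. That deviation was 0.155, -0.293 and 0.138 in log2 in the same SOD1-G93A libraries, and -0.227, 0.222 and 0.00516 in the same controls. With 3 libraries few orders are possible. In the SOD1-G93A group the microglial sum and that of 8 heat shock genes (2839, 2274 and 2515 CPM) gave the same order, and the neuronal sum the reverse. In the controls the neuronal sum gave the order of the deviation, and the microglial and heat shock sums (2410, 2676 and 2784 CPM for heat shock) did not. Single genes did not all share the order of the mean deviation, since d4443 had the highest Fos and Ier2 of its group. In the old group, library d149026 had the highest glucocorticoid-response sum (599 CPM) with the lowest mean deviation (-0.18 in log2). In the young group, d149019 had the highest sum (590 CPM) and d149012 the highest mean deviation (0.216 in log2). The part of these markers in the spread and in the differences was not tested.

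The marker lists are read beside all genes tested, of which 13.5% were higher and 12.9% lower with age. In SOD1-G93A cords these shares were 18.4% and 15.5%. Neuronal markers were called lower in 10 of 12 cases in SOD1-G93A cords, with a median log2 fold change of -0.71, and motor neuron markers in 4 of 6. Astrocyte markers were higher in 2 of 6 cases with age and 3 of 6 in SOD1-G93A cords. Of 6 oligodendrocyte markers, 1 was higher and 2 lower with age. In SOD1-G93A cords 0 of them were called by edgeR, with 1 lower at an unadjusted p under 0.05. Of 7 endothelial markers, 2 were lower with age and 1 in SOD1-G93A cords. In old cords 5 of 12 neuronal markers were lower and 1 higher, and 0 of 6 motor neuron markers were called by edgeR, or at an unadjusted p under 0.05. Microglial markers were called higher in 7 of 8 cases with age, where the summed level ran from 296 to 337 CPM in young and from 429 to 666 CPM in old libraries, and in 6 of 8 cases in SOD1-G93A cords. Macrophage activation markers were higher in 7 of 7 cases in both. Of these, Cst7 had at most 2 counts in any young and 8 in any control library, and Itgax at most 7 and 12. Both passed the low-count filter through the old or SOD1-G93A libraries, so no lower call was possible for them. The direction of Arc thus went with that of the neuronal markers in SOD1-G93A cords. That of Fos, Junb and Btg2 went with the microglial markers and with the astrocyte markers that were called. The part of any of these lists in the results was not tested. Of markers that could enter at dissection, 0 of 5 skeletal muscle genes passed the filter in the aging libraries and 1 in the ALS libraries, where Ckm, Myh4 and Tnnt3 had at most 3 counts in any library. Of 6 sensory ganglion markers, 1 and 2 were tested, and Mrgprd had 0 counts in every library. Both that were tested in SOD1-G93A cords were called, Avil higher (log2 fold change 2.59 ± 0.41, SE, adjusted p = 0.00258) and Calca lower (-0.73 ± 0.22, adjusted p = 0.0341). Avil had at most 9 counts in any control library and passed the low-count filter through the SOD1-G93A libraries, so no lower call was possible for it. Of 6 meningeal fibroblast markers, Col1a1 was called higher in SOD1-G93A cords (1.35 ± 0.30, SE, adjusted p = 0.0103), and 0 of the 5 tested were called with age by edgeR, with 1 higher at an unadjusted p under 0.05. Of 5 red cell genes, 0 were called by edgeR in either comparison, and 1 was higher with age at an unadjusted p under 0.05. Of 6 nerve root markers, 3 were tested with age and 1 was higher, and 4 were tested in SOD1-G93A cords and 2 were higher. The summed level of the 6 ran from 167 to 199 CPM in young and from 186 to 277 CPM in old libraries. It ran from 166 to 175 CPM in controls and from 207 to 433 CPM in SOD1-G93A libraries. The part of nerve root RNA in these results was not tested.

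The wider family of primary response genes was read from a list of 45 that excludes the 10. This list, like those that follow, was chosen with earlier results of these data known. With age 14 of the 42 tested rose and 1 (Errfi1) fell, and in SOD1-G93A cords 24 of the 44 tested rose and 0 fell by edgeR, by DESeq2 or at an unadjusted p under 0.05, beside the 13.5%, 12.9%, 18.4% and 15.5% of all genes given above. The median log2 fold changes were 0.11 and 0.62. Atf3, a stress-induced factor that pairs with AP-1 subunits, rose by log2 fold changes of 2.31 ± 0.19 with age (SE, adjusted p = 4.74e-09) and 5.41 ± 0.53 in SOD1-G93A cords (adjusted p = 0.000271). Ccn1, a secreted matrix protein, rose by 1.76 and 3.82, and Socs3, an inhibitor of cytokine signalling, by 1.61 and 4.499. Myc and Maff were also among the 5 smallest adjusted p-values with age (log2 fold changes 0.86 and 1.04), and Trib1 (1.97) in SOD1-G93A cords. Egr2, a relative of Egr1, had 2, 2 and 3 counts in the controls and 112, 34 and 85 counts in SOD1-G93A libraries d4435, d4437 and d4443. Taking 3 counts per library as the floor, this was at least 24-fold higher, with d4437 again the lowest. Egr2 is among the 24 genes called higher and passed the low-count filter through the SOD1-G93A libraries alone, so no lower call was possible for it. Atf3 was also low in the reference groups, with at most 15 counts in any young and 13 in any control library.

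Neuronal late response genes, which follow the early factors and encode secreted and synaptic proteins, were read from a list of 15. With age 0 of 14 rose by edgeR or DESeq2 (2 at an unadjusted p under 0.05), where 13.5% of all genes tested were higher, and 5 fell, where 12.9% were lower. Those that fell were Scg2 (log2 fold change -0.29), Nptx2 (-0.47), Homer1 (-0.27), Cpeb3 (-0.16) and Bdnf (-0.58). In SOD1-G93A cords 2 of 15 rose, Stk40 (0.77) and the cyclic AMP-responsive factor Crem (0.83), a smaller share than the 18.4% of all genes. Another 4 fell, where 15.5% of all genes were lower, among them Cpeb3 (-0.76), Pcsk1 (-0.54) and Nrn1 (-0.76). The median log2 fold changes were -0.20 and -0.34.

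Of the signalling genes upstream of the family, with age 3 of 30 rose, Mapk3 (the MAP kinase ERK1, log2 fold change 0.31), Rps6ka1 (0.39) and Elk3 (0.42), where 13.5% of all genes tested were higher, and 7 fell, where 12.9% were lower, among them Camk4 (-0.40), a calcium-dependent kinase of CREB, and Cacna1c (-0.34), an L-type calcium channel subunit. In SOD1-G93A cords 6 of 30 rose (18.4% of all genes), among them Mef2c (0.88), Elk3 (1.27) and Rps6ka1 (0.53), and 7 fell (15.5% of all genes), among them Cacna1c (-0.52) and Grin1 (-0.66), the obligate NMDA receptor subunit. The shares that rose were close to or below those over all genes, and the counts are given as a description of the list.

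**Figure D5:**
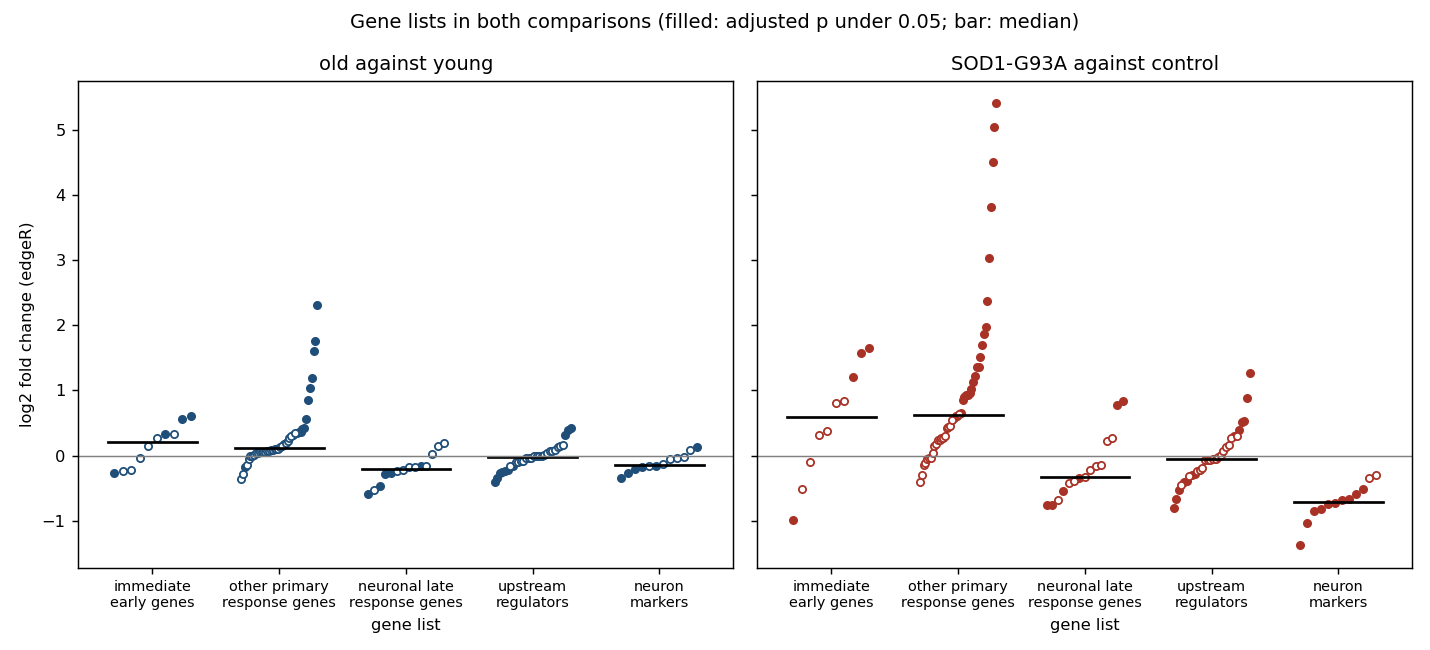
Log2 fold changes (vertical axis) of the immediate early genes, the other primary response genes, the neuronal late response genes and the upstream regulators in both comparisons, with 1 point per tested gene, filled where the adjusted p is under 0.05, a bar at each list's median, and neuronal markers beside them. In SOD1-G93A cords the other primary response genes reach a log2 fold change of 5.41, while every neuronal marker lies below zero.

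Of the 10 genes, 2 overlap other annotated genes on GRCm38. Junb (chr8:84974484-84978718, minus strand) overlaps Prdx2 on the opposite strand, and Dusp1 (chr17:26505590-26562128, minus strand) overlaps AC122252.4 and AC122252.1 on its own strand and Gm8225 and Ergic1 on the opposite one. The sources used here do not say whether reads were counted by strand, so values of Junb and Dusp1 may include reads of these genes.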

How the data were processed

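Whole spinal cord RNA of 22 mice was sequenced. The authors aligned reads with STAR and summarised them with RSEM, with SAMtools 1.3 also named, on Ensembl 88 for mm10. They deposited expected counts, which were whole numbers as deposited, and log2 values of FPKM plus 1. The counts were tested as deposited.

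Columns name group and library but no replicate number. Positions came from GENCODE M21. For each comparison, genes were filtered with edgeR's filterByExpr (minimum count 10, total 15), scaled by TMM and tested with edgeR's quasi-likelihood test (edgeR 4.0.16, R 4.3.3) with a Benjamini-Hochberg adjusted p threshold of 0.05 across every tested gene. DESeq2 1.42.0, limma 3.58.1 on log2(FPKM + 1), RLE factors, no filter, a fit of all libraries, a log2 fold change of 1 and leaving out each library were the alternatives. The procedure was tested on simulated data.

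The 10 members and all gene lists were chosen with earlier results of these data known. All members are named. Other genes are named as the 5 smallest adjusted p-values at most per list and comparison among those called, and as the 8 most alike in pattern. Errfi1, Fkbp5 and the muscle and ganglion genes at the floor were named after their values were seen. The spread was the SD of log2 CPM with a prior count of 2. No pair of libraries held the same values, and floors of 3 counts cover counting error only. Sex was not a covariate.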

Additional observations from a re-analysis of the deposited data

Results flagged for a closer look

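Egr1 in old library d149034 measured 53.4 CPM (53.367), farther from the nearest of the other 7 old libraries than Dixon's critical ratio of 0.526 allows. The 10 genes were examined in young and old mice, 20 groups in all, and chance alone marks about 1 in 20 such groups. This library also had the highest neuronal and the lowest microglial marker sum of the old group.

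The change in SOD1-G93A cords differed from the change in old cords by the edgeR interaction test for 5 of the 10 genes. Of 14502 genes tested, 11.6% had a more positive and 14.2% a more negative change. The differences in log2 fold change were 0.98 for Fos, 1.01 for Junb, 0.84 for Egr1, 0.86 for Btg2 and -0.75 for Arc. The Egr1 difference kept an adjusted p under 0.05 in 5 of 9 alternative fits. All 3 SOD1-G93A libraries lay above every control for Fos, Junb and Btg2 and below every control for Arc. Of all genes tested in that comparison, 25.7% separated in the higher and 24.7% in the lower direction. Age, disease, kit and sex composition cannot be told apart in the differences between the experiments.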

How the results depend on the processing

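No paired analysis was possible because the columns carry no replicate numbers. No result changed direction while called. With age, the count of members higher was 3 and went to 0, and the count lower was 1 and went to 0, when a log2 fold change beyond 1 was also required, and limma on log2(FPKM + 1) also gave 0 lower. In SOD1-G93A cords the count higher was 3 and became 5 with DESeq2, with limma and in the fit of all libraries, where Egr1 and Ier2 were added, and the count lower was 1 and went to 0 with the fold change threshold. Over all alternatives of the members' own values, 380 kept their side of the threshold, 11 gained and 19 lost a call.

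With each library left out in turn, members called ranged from 2 to 4 higher and 0 to 1 lower with age, from 3 to 5 higher and 1 to 1 lower in SOD1-G93A cords (5 without d4437), and from 3 to 4 higher and 1 to 1 lower in the difference between the experiments. Other primary response genes ranged from 11 to 19 higher and 0 to 1 lower with age (0 without d149018, d149019, d149027, d149028, d149035 or d149036) and from 17 to 29 higher and 0 to 1 lower in SOD1-G93A cords (1 without d4435). Neuronal late response genes ranged from 0 to 1 higher (1 without d149009, d149018, d149019, d149026, d149032 or d149034) and 4 to 8 lower with age (8 without d149020), and from 1 to 3 higher (1 without d4444) and 1 to 6 lower in SOD1-G93A cords (1 without d4441 or d4443, 2 without d4438 or d4444). Upstream regulators ranged from 3 to 4 higher and 5 to 9 lower with age. In SOD1-G93A cords they ranged from 2 to 8 higher (3 without d4438, d4441, d4444 or d4435, 2 without d4443) and 2 to 9 lower (2 without d4441 or d4443, 3 without d4444 or d4435). Where a group fell to 2 libraries, fewer samples entered the fit. For other changes the cause was not tested.

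Counts were lowest for Fosb, Npas4 and Ier2, down to 13 in a library. A prior count of 0.5 in place of 2 left the counts of members above the median spread at 10, 9, 10 and 9.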

Other observations

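Within the young and old groups, the 8 genes outside the list whose centred log2 CPM was most like the mean of the 10 immediate early genes over 16 libraries were Arl5c (Pearson r 0.874), B3gntl1 (0.825), Gpc3 (0.812), Slc25a24 (0.811), Eepd1 (0.767), Cops4 (0.756), Mif4gd (0.752) and Brdt (0.737). They were picked for this likeness from all genes tested, and each point of a correlation shares its library and scaling with the rest.

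The 10 genes were unevenly alike among themselves over the same 16 libraries. Fosb and Egr1 had the highest r, 0.723, which was 0.494 without d149034 and d149032, and Egr1 and Nr4a1 had 0.639, which was 0.507 without d149012 and d149034. Fos and Junb, partners in AP-1 that both rose with age, had an r of only 0.188. Junb and Btg2 had 0.518, and 0.524 without d149034 and d149012. Arc and Npas4, tied to neuronal activity, had 0.421, which was 0.0305 without d149017 and d149009. Against the mean of the other 9 genes, Nr4a1 had the highest r at 0.74 and Ier2 the lowest at -0.199.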
